A study of Mus musculus with 6 samples.

Results

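Cadherins and protocadherins are the calcium-dependent adhesion proteins with which neighbouring cells hold on to and recognise each other. The genes described here are those whose symbol starts with Cdh and a digit, or with Pcdh, and which had at least 1 transcript cluster (an array feature that summarises the probes of a transcript) annotated with that symbol alone. There were 57 such genes among 19938 measured genes, represented by 61 clusters, and where a gene had several clusters the one with the highest mean over all arrays was kept. Of the 57 genes, 22 belong to the *Pcdhb* cluster and 35 lie outside the protocadherin clusters, 23 of them *Cdh* genes and 12 nonclustered *Pcdh* genes. *Pcdha* and *Pcdhg* genes with a cluster of their own numbered 0.

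The cells were N2A, a mouse neuroblastoma line that grows attached to the dish and keeps features of sympathetic neurons. They were grown in medium with 10% serum and transiently transfected with 1.5 µg of shRNA vector, which in the knockdown group targeted *Paupar*, a long noncoding RNA made upstream of *Pax6*, and in the control group had no target. RNA was taken 2.5 days later. The design asks which transcripts differ when *Paupar* is lowered. There were 3 control and 3 knockdown samples, called biological replicates in the study's methods, each on 1 Affymetrix Mouse Gene 1.0 ST array, and precision is limited by so few arrays. Transfection was transient, so transfected and untransfected cells were measured together, and in such bulk RNA fewer cells of a kind cannot be told from less RNA per cell. No cluster was annotated as *Paupar*, so the depth of the knockdown was not analysed here.

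The hairpin sequence is shown because it is the only agent that separates the groups. The sense oligonucleotide of construct sh408, which the study names for this knockdown, is given 5′ to 3′ as its oligonucleotide list has it, with 52 bases, the 9-base loop and the end of the hairpin with its terminator in capitals. As listed, the arm after the loop does not hold the whole complement of the arm before it:
sh408: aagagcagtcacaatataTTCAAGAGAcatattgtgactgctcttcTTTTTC

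Cadherin proteins share extracellular cadherin repeats that are stiffened by calcium. Type I cadherins such as N-cadherin (*Cdh2*) and E-cadherin (*Cdh1*) bind like to like and are joined to actin through catenins, and type II cadherins are their relatives with narrower patterns, many in neurons. Clustered protocadherins are encoded in 3 neighbouring gene arrays, alpha, beta and gamma, in which each variable exon or gene has its own promoter. A neuron uses a few of these promoters, so that its surface carries a combination by which its own branches recognise each other. Promoter choice depends on the insulator protein CTCF, on cohesin and on DNA methylation. Nonclustered protocadherins, the delta-1 and delta-2 groups among them, act in axon growth and synapse formation.

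Values are log2 RMA values, a scale on which a difference of 1 is a doubling, and differences are knockdown minus control. Differences, their 95% intervals and unadjusted p values were taken from a limma fit to all 19938 genes. A gene is said to have risen or fallen where its Benjamini-Hochberg adjusted p was under 0.05 in limma among the 9969 genes that remained after the less variable 50% were removed. Levels of different genes were not compared as amounts of RNA, since each probe binds with its own strength. Over the named genes the array medians lay between 7.85 and 7.92, the arrays correlated with r of 0.990 to 0.998, and no pair held identical values. Markers of sympathetic neuroblasts were measured for 7 of 8 genes at log2 values of 8.49 to 13.2. On the linear scale their sum ran from 19013 to 19755 in control and from 15232 to 16850 in knockdown. Genes with high values weigh most in this sum, first *Chga*, which was not called (mean 13.12 in control and 12.78 in knockdown, adjusted p = 0.0889 in limma). Of the 6 that passed the variance filter 2 fell (*Th* and *Dbh*, enzymes of catecholamine synthesis), beside 5.16% of all tested genes. The part of these marker shifts in the results below was not tested. The corresponding sums of epithelial, endothelial, fibroblast and glial markers overlapped between the groups, with 0 genes called; 3 of 6, 3 of 6, 5 of 6 and 0 of 4 measured genes of these lists passed the variance filter and were tested. The values come without a detection call, so a low value was not read as absence.

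*Pcdhb* genes lay mostly below control after *Paupar* knockdown, by modest amounts. The difference was below 0 for 20 of 22 genes (90.9%, against 41.6% of all genes), and its median was -0.26, compared with 0.03 over all genes. The differences ran from -0.56 for *Pcdhb17* to 0.06 for *Pcdhb2*. After adjustment, 1 of the 19 *Pcdhb* genes that passed the variance filter fell (*Pcdhb22*) and 0 rose, beside 5.16% of all tested genes that fell and 2.39% that rose. The other 18 tested genes did not pass the threshold, and *Pcdhb2*, *Pcdhb5* and *Pcdhb13* did not pass the filter. The share called is therefore near the background. An unadjusted p under 0.05 with a value below control was reached by 13 of the 22 (59.1%, against 9.73% of all genes) and in the opposite direction by 0 (8.67% of all genes). These counts describe 22 genes with similar sequences measured in the same 6 samples, and are not 22 independent results.

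**Figure D1:**
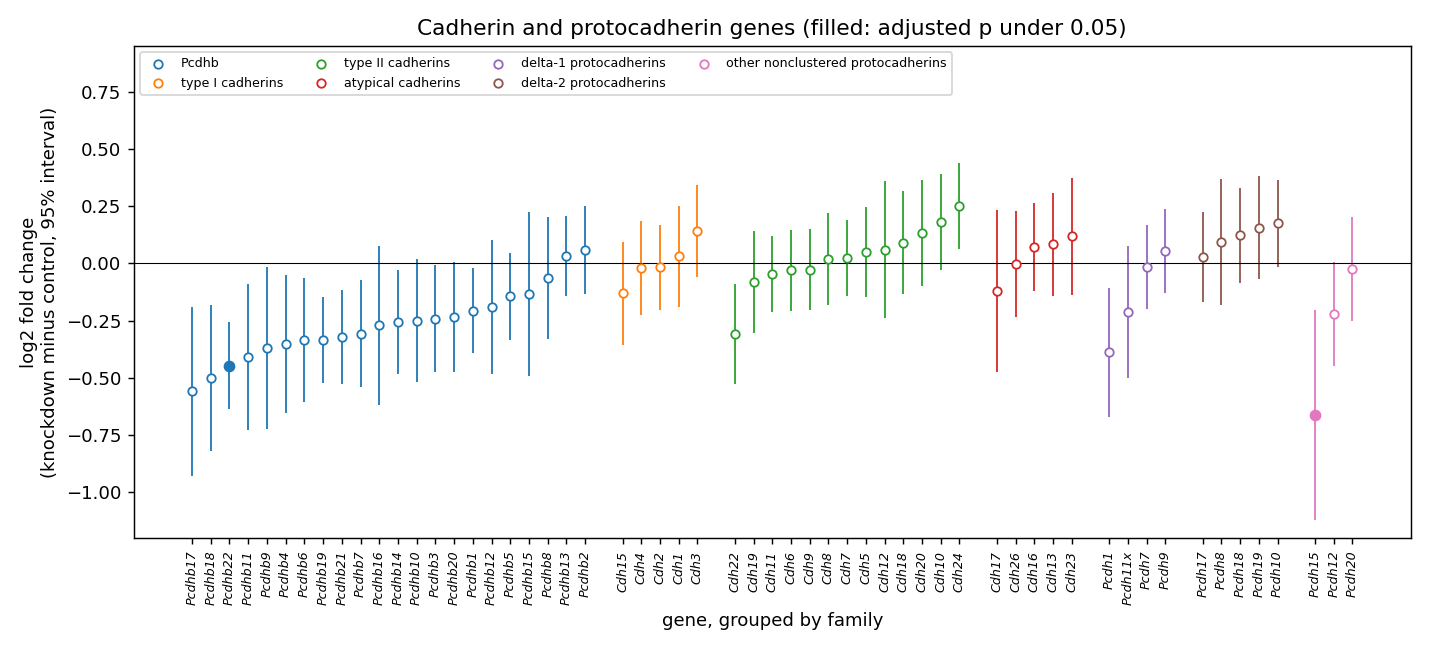
Difference in log2 value, knockdown minus control, for the 57 cadherin and protocadherin genes grouped by family, with 95% intervals from limma (3 arrays per group); filled points passed an adjusted p of 0.05. The *Pcdhb* points lie below 0 in 20 of 22 genes, and the 2 filled points are *Pcdhb22* and *Pcdh15*.

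*Pcdhb22* read 7.25, 7.31 and 7.10 in the 3 control samples and 6.77, 6.78 and 6.76 in the 3 knockdown samples. All knockdown values lay below all control values and within a range far narrower than that of control. The mean fell from 7.22 ± 0.11 to 6.77 ± 0.01 (SD, n = 3 each), a difference of -0.45 (SE 0.12) or 1.36-fold lower, with an adjusted p of 0.0343 in limma. In limma without the variance filter it was also called (adjusted p = 0.0295), as 2.1% of all 19938 genes were with a value below control. Leaving out knockdown replicate 3 kept the call (adjusted p = 0.0362), and leaving out any of the other 5 samples gave adjusted p values from 0.0662 to 0.135 with differences from -0.51 to -0.40. When clusters with no symbol or several symbols were kept in the test, its adjusted p was 0.185, the highest over the alternatives, and 0 genes of the whole array were called.

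*Pcdhb17* and *Pcdhb18*, next to each other in the cluster, had the largest differences in the cluster but did not pass the threshold. *Pcdhb17* read 6.66, 6.24 and 6.43 in control and 5.82, 5.59 and 6.24 in knockdown. Its difference was -0.56 (SE 0.16, 1.47-fold lower, adjusted p = 0.0502 in limma). Knockdown replicate 3 came within a few thousandths of the lowest control sample, so the groups were only just separate. *Pcdhb18* read 7.29, 6.98 and 7.05 in control and 6.64, 6.31 and 6.87 in knockdown, a difference of -0.50 (SE 0.15, adjusted p = 0.0533). Each of the pair was called in 6 of 15 alternatives, among them a fit with a variance trend and those without control replicate 2 or knockdown replicate 3, and over all alternatives the adjusted p ran from 0.000116 to 0.246 for *Pcdhb17* and from 0.00057 to 0.284 for *Pcdhb18*. In both genes knockdown replicate 2 was the lowest of all 6 samples and control replicate 1 the highest.

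Knockdown samples lay below every control sample for 8 of the 22 genes (36.4%, against 10.8% of all genes) and above every control sample for 0 (12.8% of all genes). The 8 were *Pcdhb1*, *Pcdhb6*, *Pcdhb7*, *Pcdhb17*, *Pcdhb18*, *Pcdhb19*, *Pcdhb21* and *Pcdhb22*. *Pcdhb19* read 6.82, 6.96 and 6.84 in control against 6.51, 6.49 and 6.62 in knockdown (difference -0.33, adjusted p = 0.0915). *Pcdhb21* read 6.57, 6.73 and 6.73 against 6.33, 6.25 and 6.48 (difference -0.32, adjusted p = 0.114). Both had similar spread in control and knockdown. In *Pcdhb6* the control values of 7.72, 7.70 and 7.69 nearly coincided, whereas its knockdown values were 7.26, 7.18 and 7.66 (difference -0.34, adjusted p = 0.139). *Pcdhb1* and *Pcdhb7* had differences of -0.21 and -0.31.

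Among the 14 genes whose groups overlapped, some had low values in knockdown replicates 1 and 2 and a control-like value in knockdown replicate 3. *Pcdhb9* read 5.02, 4.89 and 4.92 in control and 4.38, 4.35 and 4.99 in knockdown (difference -0.37, 95% interval -0.72 to -0.02). *Pcdhb11* read 7.46, 7.29 and 7.20 in control and 6.83, 6.66 and 7.23 in knockdown (difference -0.41, 95% interval -0.73 to -0.09). *Pcdhb4* read 8.13, 7.99 and 8.28 against 7.81, 7.51 and 8.03 (difference -0.35, 95% interval -0.65 to -0.05). In each of the 3 genes knockdown replicate 3 lay inside the control range. At the other end, *Pcdhb2* read 6.87, 6.66 and 6.70 against 6.76, 6.82 and 6.81 (difference 0.06, 95% interval -0.13 to 0.25), and *Pcdhb13* had a difference of 0.03 (95% interval -0.14 to 0.21). *Pcdhb8* and *Pcdhb15*, at -0.06 and -0.13, also had intervals that held 0.

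**Figure D2:**
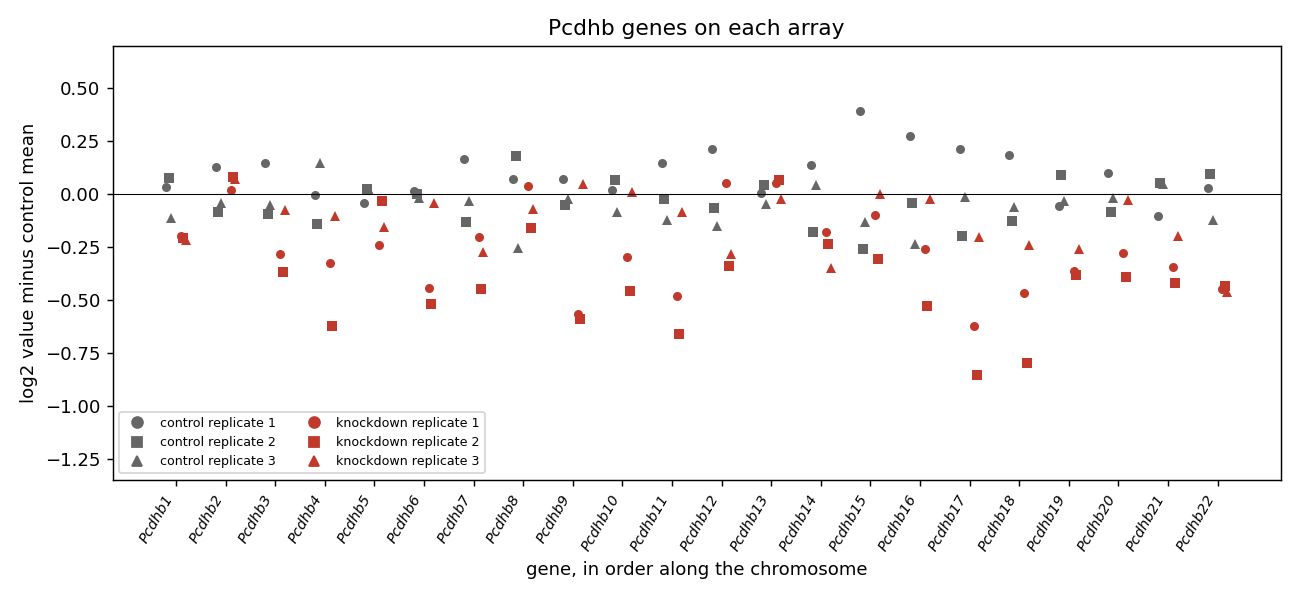
Value of each *Pcdhb* gene on each of the 6 arrays, as log2 value minus the control mean of that gene, with genes in their order along the chromosome (circles, squares and triangles are replicates 1, 2 and 3). Red knockdown points lie mostly below 0, and the red triangles of replicate 3 are the highest knockdown points for 13 of 22 genes.

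The 3 knockdown samples did not shift equally. Averaged over the 22 genes, the value relative to the control mean was -0.27, -0.39 and -0.13 in knockdown replicates 1, 2 and 3, and 0.10, -0.04 and -0.06 in the control replicates. All 3 knockdown means thus lay below all 3 control means, with replicate 3 nearest to control. Replicate 3 was the highest knockdown sample for 13 genes, and control replicate 1 was the highest control sample for 13. Knockdown replicates 1 and 2 both lay below every control sample for 15 genes, and replicate 3 did so for 11. The share of all genes that met these looser rules was not computed, so these counts only describe how the replicates differed. The mean over all 19938 genes lay between -0.0241 and 0.0212 of the control mean on every array. Separate array means were not particular to *Pcdhb*. Those of the 12 nonclustered *Pcdh* genes were -0.09, -0.07 and -0.07 in knockdown and 0.07, -0.06 and -0.01 in control, a smaller shift. The median difference of the *Pcdhb* genes was -0.35 without knockdown replicate 3 and -0.21 without control replicate 1 or without knockdown replicate 2. The number called moved much more: 7 fell without knockdown replicate 3, among them *Pcdhb4*, *Pcdhb6*, *Pcdhb9* and *Pcdhb11* (of 19 tested, beside 9.08% of all genes that fell in that fit), and 2 fell without control replicate 2 (of 18 tested, beside 5.2% of all genes). Without any one of the other 4 samples 0 fell, of 13 to 18 tested. In those fits only 87 to 194 of 9969 tested genes fell, so 0 calls is near that background. With 3 samples against 3, an exact two-sided permutation test over samples cannot give a p below 0.1, so none was used.

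**Figure D3:**
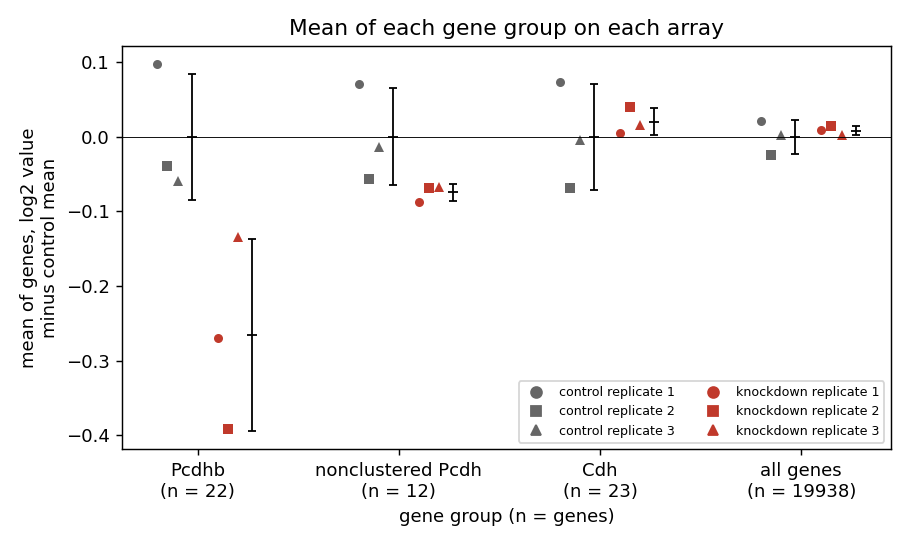
Mean over the genes of each group on each array, as log2 value minus the control mean, with bars for the mean and SD of the 3 control and the 3 knockdown arrays. The *Pcdhb* means of the knockdown arrays are -0.27, -0.39 and -0.13, and those of the nonclustered *Pcdh* genes lie between -0.09 and -0.07. In both groups they lie below all control means. Those of the *Cdh* genes lie between 0.01 and 0.04, and those of all genes lie near 0.

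*Pcdhb* genes stand one after another on chromosome 18, numbered in their order. The last 6, *Pcdhb17* to *Pcdhb22*, had a median difference of -0.39 with 6 of 6 below 0 and 5 of 6 below every control sample, where 41.6% and 10.8% of all genes were. For the first 16 the median was -0.25, with 14 below 0 and 3 below every control sample. The split after the sixteenth gene was made with the values in view and was not tested. Genes that flank the cluster gave a nearby reference: 16 measured genes that are not protocadherins, 6 before and 10 after it. None that passed the filter was called, beside 5.16% of all tested genes that fell and 2.39% that rose. With so few genes, 0 calls is near that background. The 16 genes had a median difference of 0.01 (range -0.27 to 0.18), with 7 below 0 and 9 above. They included *Taf7*, a subunit of the general transcription factor TFIID, at 0.01, *Hdac3*, a histone deacetylase, at 0.00, and *Diaph1*, a formin that builds actin filaments, at 0.18. A pair of nonclustered protocadherins further along, *Pcdh1* and *Pcdh12*, had differences of -0.39 and -0.22. *Pcdhb* genes resemble one another in sequence, so a probe may bind the transcript of a neighbour, and a value cannot be assigned to its gene alone with certainty.

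For the alpha cluster, 1 transcript cluster carried the symbols of 14 *Pcdha* genes together, whose transcripts share their last exons. It read 8.45, 8.28 and 8.31 in control and 8.15, 8.07 and 8.24 in knockdown. The knockdown samples lay below every control sample by a small margin, the difference was -0.19 (SE 0.09), and the adjusted p was 0.401 in a limma fit to all clusters. With all clusters kept, 0 of 17778 features were called after the variance filter, so that adjusted p says little about this cluster. It could not be assigned to any 1 *Pcdha* gene.

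Outside the clusters, the 35 other cadherins and protocadherins were spread around 0. Their median difference was 0.02, beside 0.03 over all genes, with 16 below 0 and 19 above. Of 15 that passed the variance filter, 1 fell (*Pcdh15*) and 0 rose, beside 5.16% and 2.39% of all tested genes. Knockdown samples lay below every control sample for 4 (*Cdh11*, *Cdh22*, *Pcdh1* and *Pcdh11x*) and above for 3 (*Cdh7*, *Cdh24* and *Pcdh10*), 11.4% and 3 of 35 against the 10.8% and 12.8% of all genes. An unadjusted p under 0.05 was reached by 3 below control (*Cdh22*, *Pcdh1* and *Pcdh15*) and 1 above (*Cdh24*), 3 and 1 of 35 against 9.73% and 8.67% of all genes. In limma without the variance filter 0 of the 35 were called, with a smallest adjusted p of 0.118 and 4 at an unadjusted p under 0.05.

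*Pcdh15*, which forms the lower part of the tip link that gates the transduction channels of hair cells, fell by the largest amount of any member. It read 8.52, 8.01 and 8.03 in control and 7.29, 7.28 and 8.01 in knockdown. Knockdown replicates 1 and 2 lay far below control, but replicate 3 equalled the lowest control sample to 2 decimals, so the groups overlapped. The mean was 8.19 ± 0.29 in control and 7.53 ± 0.42 in knockdown (SD, n = 3 each), a difference of -0.66 (SE 0.19) or 1.58-fold lower, with an adjusted p of 0.0482 in limma. A further cluster annotated as *Pcdh15* pointed the opposite way, with 7.16, 7.08 and 7.15 in control, 7.38, 7.44 and 7.12 in knockdown and a difference of 0.18. With both clusters averaged the difference was -0.24 and the adjusted p 0.238, and over all alternatives the adjusted p ran from 0.000106 to 0.245. The adjusted p was 0.0309 without control replicate 2, 0.00783 without knockdown replicate 3, 0.151 without control replicate 1 and 0.132 without control replicate 3, while without knockdown replicate 1 or 2 the gene no longer passed the variance filter. *Pdgfrb*, a receptor of pericytes and fibroblasts among the fibroblast markers, had a like order of samples, with 9.55, 8.38 and 8.88 in control and 7.90, 7.96 and 8.70 in knockdown (adjusted p = 0.0807 in limma). It was the lowest of the 6 fibroblast markers at -0.75. The list as a whole did not share this, with a median difference of 0.07, 4 genes above 0 and 2 below. The part of *Pdgfrb* in the *Pcdh15* value was not tested.

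Most other genes of the hair-cell tip link did not pass the variance filter. *Cdh23*, which forms the upper part of the link and binds *Pcdh15* end to end, read 6.82, 6.48 and 6.78 in control and 6.81, 6.95 and 6.68 in knockdown (difference 0.12, 95% interval -0.14 to 0.37), and was not tested after the filter. Of 7 measured genes of the transduction complex and the Usher proteins, 1 was tested and 0 were called, with differences from -0.20 for *Myo7a*, a motor of the hair bundle, to 0.14 for *Ush1g*, a scaffold.

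Among the 4 delta-1 protocadherins, 1 passed the variance filter and 0 were called. *Pcdh1*, an adhesion protein of epithelia and neurons, read 9.26, 9.14 and 9.20 in control and 8.74, 8.59 and 9.10 in knockdown. All knockdown samples lay below control, replicate 3 by the least, and the difference was -0.39 (SE 0.14, adjusted p = 0.0990 in limma). Without knockdown replicate 3 it was called. *Pcdh11x*, an X-linked protocadherin of the brain, had a difference of -0.21 that rested on knockdown replicate 3, with 5.84, 5.87 and 5.88 in control and 5.84, 5.79 and 5.33 in knockdown. *Pcdh7* and *Pcdh9*, which act in axon outgrowth and in neuronal circuits, had differences of -0.02 and 0.05.

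Delta-2 protocadherins, which link to the WAVE complex that drives actin branching, lay above control in 5 of 5 genes, as 58.4% of all genes did, with a median difference of 0.12. Of the 5, 1 passed the variance filter and 0 were called. *Pcdh10*, which acts in axon pathfinding of forebrain neurons, read 6.21, 6.12 and 6.29 in control and 6.40, 6.44 and 6.31 in knockdown. These groups were narrowly separate, with a difference of 0.17 (95% interval -0.01 to 0.36). *Pcdh19*, whose mutation causes an epilepsy mostly of females, read 5.97, 5.69 and 5.99 against 6.09, 5.97 and 6.06 (difference 0.16, 95% interval -0.07 to 0.38). *Pcdh17* and *Pcdh18* had differences of 0.03 and 0.12, and *Pcdh8* of 0.09. Of the 8 measured kinases and WAVE complex genes of the protocadherin list, 2 were tested and 0 called, and their median difference was 0.00. *Pcdh12*, a protocadherin of endothelium, was listed here outside the delta groups, so the 5 of 5 above leaves it out. It read 7.73, 7.49 and 7.77 in control and 7.33, 7.48 and 7.52 in knockdown (difference -0.22, adjusted p = 0.267 in limma). *Pcdh20*, listed with it, had a difference of -0.02.

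Of the 5 type I cadherins, 3 were tested and 0 called, and their differences ran from -0.13 for *Cdh15*, the muscle cadherin, to 0.14 for *Cdh3*, the placental cadherin. *Cdh2*, the main classical cadherin of neural cells, read 9.72, 9.80 and 9.81 in control and 9.70, 9.72 and 9.85 in knockdown. The groups overlapped almost fully, and the difference of -0.02 had a 95% interval of -0.20 to 0.17. When the arrays were centred on their medians the value was 0.00, with the sign turned. *Cdh1*, the epithelial cadherin, read 6.67, 6.58 and 6.46 against 6.70, 6.66 and 6.44 (difference 0.03, 95% interval -0.19 to 0.25). *Cdh4*, the retinal cadherin, had a difference of -0.02 with an interval of -0.22 to 0.19. Of 5 measured transcriptional repressors of *Cdh1*, the Snail, Zeb and Twist factors, 2 were tested and 0 called. *Snai2* read 7.10, 7.18 and 7.25 in control and 7.39, 7.48 and 7.41 in knockdown (adjusted p = 0.185 in limma).

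In the type II family, *Cdh22* and *Cdh24* marked the ends of the range, and of 13 genes 5 were tested and 0 called. *Cdh22*, a cadherin of forebrain and pituitary, read 8.83, 8.78 and 9.07 in control and 8.53, 8.58 and 8.65 in knockdown. The groups were separate, and the difference was -0.31 (SE 0.12, adjusted p = 0.132 in limma). *Cdh24* read 8.55, 8.37 and 8.52 in control and 8.73, 8.71 and 8.76 in knockdown, also without overlap, with a difference of 0.25 (SE 0.12, adjusted p = 0.186). Its second cluster pointed the same way, with a difference of 0.11. *Cdh10*, a brain cadherin, had a difference of 0.18, and *Cdh19*, a cadherin of Schwann cell precursors, one of -0.08. *Cdh11*, a cadherin of mesenchyme and brain, was separate between the groups at 6.22, 6.21 and 6.21 against 6.17, 6.18 and 6.16, but by only -0.05 (95% interval -0.21 to 0.12). Of the 5 atypical cadherins, 2 were tested and 0 called. *Cdh13*, which is held to the membrane by a lipid anchor, had a difference of 0.08 (95% interval -0.14 to 0.31). *Cdh17*, the intestinal cadherin, had one of -0.12, and *Cdh26* one of 0.00 whose sign turned with centring on the array medians.

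**Figure D4:**
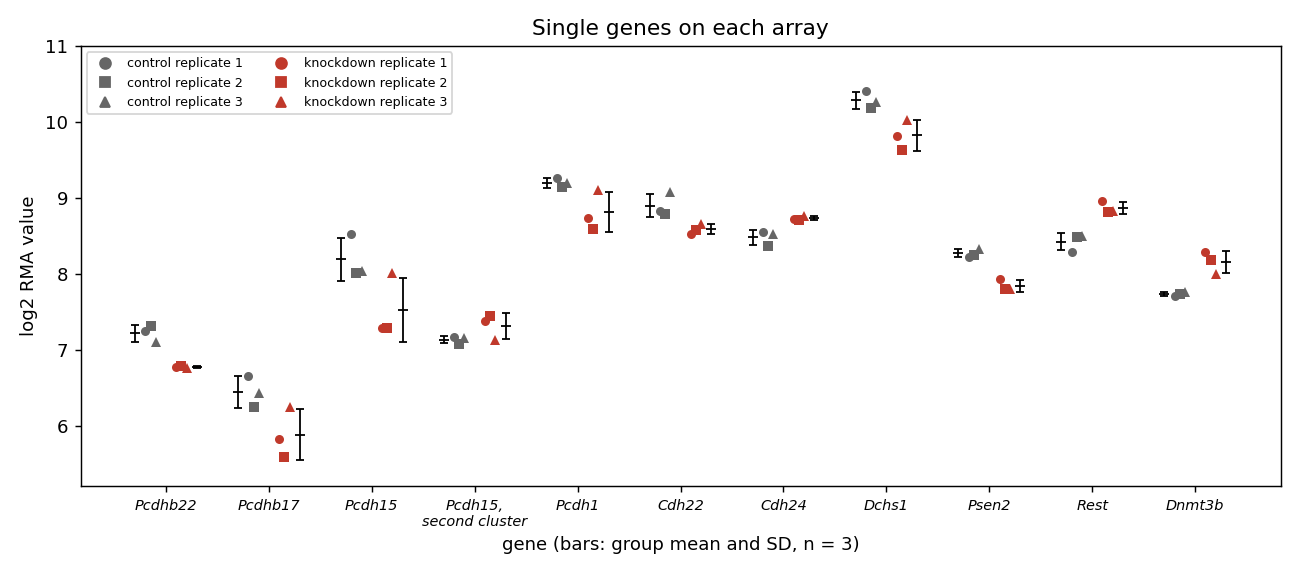
Log2 RMA values of single genes on each array, with the mean and SD of the 3 control and 3 knockdown samples beside the points. *Pcdhb22* is separate between the groups, *Pcdh15* overlaps through knockdown replicate 3, and its second cluster lies in the opposite direction.

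Transcripts of proteins that work with cadherins were measured for 74 of 82 listed genes. Of the 32 that passed the variance filter, 2 fell (*Dchs1* and *Psen2*) and 2 rose (*Rest* and *Dnmt3b*), beside 5.16% and 2.39% of all tested genes. In the list of FAT, dachsous and CELSR cadherins, the giant relatives that set planar polarity, *Dchs1* was the called gene of 3 tested and 8 measured. *Dchs1* is the partner to which FAT4 binds on the next cell, and it read 10.41, 10.19 and 10.26 in control and 9.82, 9.63 and 10.03 in knockdown. The groups were separate, with a difference of -0.46 (1.38-fold lower, adjusted p = 0.0477 in limma). *Fat4* itself had a difference of -0.03. *Celsr3*, which guides axon tracts, had one of -0.31 (adjusted p = 0.173).

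Proteases that cut cadherins contributed *Psen2*, a catalytic subunit of gamma-secretase, which read 8.23, 8.25 and 8.33 in control and 7.93, 7.80 and 7.79 in knockdown. It fell by 0.43 on the log2 scale (1.35-fold lower, adjusted p = 0.0380 in limma), with no overlap. In this list 3 of 5 measured genes were tested, and *Psen2* alone was called. *Adam10*, the sheddase of N-cadherin and of gamma protocadherins, read 10.24, 10.09 and 10.07 in control and 10.35, 10.49 and 10.58 in knockdown (difference 0.34, adjusted p = 0.1003). *Ncstn*, another subunit of gamma-secretase, had a difference of -0.28 (adjusted p = 0.164).

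Regulators of the protocadherin clusters lay above control in 12 of 13 genes, beside 58.4% of all genes, with a median difference of 0.26, while *Mau2*, a cohesin loader subunit, lay below it at -0.21. Of the 10 that passed the filter 2 rose, beside 2.39% of all tested genes. *Rest*, a repressor of neuronal genes, read 8.29, 8.48 and 8.49 in control and 8.96, 8.81 and 8.83 in knockdown (difference 0.44, 1.36-fold higher, adjusted p = 0.0382 in limma). *Dnmt3b*, a DNA methyltransferase that sets methylation at protocadherin promoters, read 7.70, 7.74 and 7.76 in control and 8.29, 8.18 and 7.99 in knockdown (difference 0.42, 1.34-fold higher, adjusted p = 0.0477). Both were separate between the groups. The cohesin subunit *Rad21* read 12.50, 12.41 and 12.53 in control and 12.85, 12.91 and 12.85 in knockdown, a difference of 0.39 that just missed the threshold (adjusted p = 0.0507) and passed it in limma without the variance filter (adjusted p = 0.0348). *Ctcf* read 9.94, 10.45 and 10.08 against 10.75, 10.67 and 10.23 (difference 0.39, adjusted p = 0.143), with overlap. *Stag1*, another cohesin subunit, had a difference of 0.41 (adjusted p = 0.106). Without control replicate 1 or 3, or without knockdown replicate 1 or 2, 0 of the partner genes were called. Without control replicate 2, *Psen2* and *Dnmt3b* lost the call, *Dchs1* and *Rest* did not, and *Ctcf* gained one. Without knockdown replicate 3 each of the 4 remained called, and *Ctcf*, *Rad21* and *Jup* gained a call.

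Intracellular linkers and other partners gave 0 calls, beside 5.16% of all tested genes that fell and 2.39% that rose. So few of them were tested that 0 calls is near that background. Of 12 measured catenins and junction linkers, 3 were tested, 8 lay below 0 (41.6% of all genes did) and the median difference was -0.07. Beta-catenin (*Ctnnb1*), which binds the cytoplasmic tail of classical cadherins, read 12.42, 12.42 and 12.52 in control and 12.43, 12.40 and 12.43 in knockdown (difference -0.03, 95% interval -0.21 to 0.14). Plakoglobin (*Jup*), its close relative, read 11.54, 10.94 and 11.25 against 10.50, 10.54 and 11.41, so that again knockdown replicate 3 lay with control (difference -0.43, adjusted p = 0.212 in limma). Without that replicate *Jup* was called. *Afdn*, which ties junctions to actin, was separate between the groups at 11.58, 11.42 and 11.33 against 11.23, 11.23 and 11.25 (adjusted p = 0.269). Calsyntenins, cadherin-repeat proteins of the synapse, and *Ret*, a receptor kinase with cadherin repeats that protocadherins bind, lay below 0 in 4 of 4 genes, as 41.6% of all genes did. Of these 4 genes 3 were tested, and their median was -0.19 over all 4. The 7 measured desmosomal cadherins and 5 cadherin-related genes, with 2 and 3 tested, had median differences of 0.07 and 0.04.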

How the data were processed

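RNA of 3 control and 3 knockdown N2A samples had been hybridised to Affymetrix Mouse Gene 1.0 ST arrays from 200 ng of RNA each. RMA, with background correction and quantile normalisation, had been applied by the authors, and the deposited values are log2 expression values. Versions of their tools and a genome build were not given in the sources used. Of 35556 clusters, 21789 had 1 symbol in the platform annotation, 1621 several and 12146 none, and 21698 matched RefSeq (GRCm38.p6) by Entrez identifier, used for names and gene order only. After the study's methods, limma 3.58.1 (R 4.3.3) compared the groups without covariates after a filter on variation; interquartile range as its measure was chosen here. The fit was tested on simulated data with independent noise for each gene and array, which hold no shift shared by the genes of an array. Standard errors beside adjusted p values are those of the filtered fit. The members and lists were chosen with earlier results of these data known. Genes named by rule were called members and partners, the 2 largest differences each way per family, and 8 set genes; other names were chosen after their values were seen or list a count. Medians planned for *Pcdha* and *Pcdhg* genes could not be computed, since no cluster carried 1 such symbol. Alternatives changed the filter, cluster choice, centring, array weights, variance trend, replicate block and single samples. Python 3.11.15 and pandas 2.3.3 made the summaries.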

Additional observations from a re-analysis of the deposited data

How the results depend on the processing

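Counts of called genes depended on the processing more than differences did. The main counts were 752 genes in all, 1 *Pcdhb* gene, 1 other member and 4 partner genes. With array weights they were 5561, 14, 11 and 22 (over all genes 2896 rose and 2665 fell). With clusters lacking a single symbol kept they were 0, 0, 0 and 0 in limma, with 3015 of 17778 features at an unadjusted p under 0.05. *Pcdhb* calls numbered 3 with a variance trend or with a filter by sample variance, and 0 with a filter by mean level, which left 2 *Pcdhb* genes. Other members called numbered 0 with no variance filter, a filter by mean level, the mean of a gene's clusters, or arrays centred on the median. Samples with the same replicate number showed no clear shared deviation (correlations of -0.288, 0.0624 and 0.0751). Between unlike numbers the correlations ran from -0.316 to 0.374. With 3 samples per group these values cannot tell whether same-numbered samples were prepared together. With the replicate number as a block 680 genes were called in all, 3 *Pcdhb* genes, 1 other member and 1 partner gene. Under the block *Dchs1* kept its call and *Psen2*, *Rest* and *Dnmt3b* lost theirs (adjusted p = 0.0573, 0.0552 and 0.0675 in limma), while *Pcdhb17* and *Pcdhb18* gained one (0.0275 and 0.0397). Leaving out each sample in turn gave 112 to 1239 genes in all, 0 to 7 *Pcdhb* genes, 0 to 2 other members and 0 to 7 partner genes, and median differences of -0.354 to -0.208 for *Pcdhb* genes and -0.0116 to 0.0482 for the others (-0.0116 without control replicate 3, the 1 reversal). The cause was not tested. Signs of differences near 0 turned: *Cdh2* to 0.00243 and *Cdh4* to 0.00173 with centring, *Cdh26* to 0.0186 with centring and 0.0906 with weights, and *Cdh4* to 0.0326 with weights. Without single samples the difference ran from -0.0224 (without control replicate 3) to 0.111 for *Cdh1*, with -0.0185 and -3.56e-05 without knockdown replicates 1 and 2, from -0.293 to 0.00289 for *Cdh17*, from -0.134 to 0.00529 for *Cdh19*, from -0.066 to 0.0103 for *Cdh2*, from -0.0863 to 0.094 for *Cdh26* and from -0.0657 to 0.0385 for *Cdh4*. Among single named genes and alternatives, 370 of the values kept direction and side of the threshold, 43 lost the call, 21 gained it and 16 turned sign.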

Other observations

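Beside the *Cdh11* cluster described above, 3 clusters were annotated with *Cdh11* together with other symbols, and could not be assigned to it. Their mean log2 values were 13.56, 12.56 and 13.56 in control and 13.39, 12.37 and 13.38 in knockdown, with differences of -0.17, -0.19 and -0.18 that did not pass the threshold in a limma fit to all clusters (adjusted p = 0.434, 0.418 and 0.409). With all clusters kept, 0 of 17778 features were called after the variance filter.

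None of the 4 second clusters of members passed the threshold in the same fit. The kept clusters of these 4 genes did not pass it there either (adjusted p from 0.260 to 0.807 in limma), so this does not set the second clusters apart. *Pcdh9* had a difference of 0.03 in its second cluster beside 0.05 in the one kept, and *Cdh18* had 0.08 beside 0.09.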
